A study of Homo sapiens with 9 samples.

Results

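The Polycomb, MLL, SWI/SNF and DNA methylation machinery was followed at the RNA level in HAL-01, a human B cell acute lymphoblastic leukemia line driven by the fusion protein TCF3::HLF. Its members were 42 genes chosen by their GENCODE release 44 symbols, out of 62700 genes in the deposited table. The rule used the symbols alone and no measured value, although the members were chosen with earlier results of these data known. They comprise 7 subunits of Polycomb repressive complex 2 (PRC2), 10 of PRC1, 6 MLL family enzymes and partners, 10 SWI/SNF subunits, 4 DNA methylation genes, 3 TET dioxygenases and 2 acetyltransferases. All cells stably expressed Cas9 and GFP (Cas9GFP per the labels), the controls included. The SCR1 group received a control guide, and the sgRNA_96 and sgRNA_97 groups each received a guide against the MEF2C enhancer that TCF3::HLF occupies (MEF2C Enhancer KO per the labels). Each group held 3 libraries, numbered 1, 3 and 4 and collected on day 13. The data therefore come from 1 cell line, and neither the labels nor the methods say whether unedited cells were removed or whether replicates were separate transductions, so p-values measure only the spread between these libraries. Of the 42 members, 41 passed the filter on low counts, among 14436 genes that did. TET1 did not, with 0 to 5 counts per library.

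These complexes set the state of chromatin. PRC2 methylates histone H3 at lysine 27 and PRC1 ubiquitinates histone H2A, and together they keep genes silent, while MLL enzymes methylate H3 at lysine 4 and SWI/SNF remodelers move nucleosomes to hold promoters and enhancers open. DNMT1 with UHRF1 copies DNA methylation onto newly made DNA, DNMT3A and DNMT3B set it anew, and TET enzymes oxidize it, and many of these genes are recurrently mutated or rearranged in leukemia.

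Libraries held 15212462 to 29777361 estimated counts, and the deepest was SCR1 replicate 1. B-lineage markers were present throughout (9 of 9 at 1 TPM or more, summed level 3071 to 3258 TPM in SCR1 and 2746 to 3208 TPM in KO libraries), and 1 of the 9 was called, the adaptor BLNK, which was higher in KO (log2 fold change 0.34, SE 0.05, edgeR adjusted p = 0.000294). The 5 T-lineage markers summed to at most 0.0444 TPM and the 4 erythroid and megakaryocytic markers to at most 0.494 TPM in any library, with 4 and 3 of them at 0. The 5 myeloid markers summed to 13.1 to 16.4 TPM in SCR1 and 12.0 to 16.7 TPM in KO libraries, with ELANE at 0, and the 4 stromal ones to 5.11 to 6.79 and 4.50 to 6.39 TPM, with 2 at 0. Among the myeloid markers MPO, the granule enzyme myeloperoxidase, was higher in all 6 KO libraries, at a mean of 2.75 CPM in SCR1 and 5.82 CPM in KO (1.08, SE 0.19, adjusted p = 0.000894), and CSF1R was not called (-0.21, SE 0.09). The part of MPO and BLNK in the members' changes was not tested. MEF2C itself was measured at 560, 559 and 536 CPM in the SCR1 libraries. With sgRNA_96 it was at 495, 498 and 510.1 CPM, and with sgRNA_97 at 553, 505 and 495 CPM, so that 5 of the 6 KO libraries lay below all controls. Its log2 fold change was -0.12 (SE 0.04, edgeR adjusted p = 0.0620), short of the threshold of 0.05. The authors, whose methods name DESeq2, reported MEF2C among the genes significantly lower after enhancer KO (adjusted p under 0.05). They also found its RNA lower by RT-qPCR and its protein lower by Western blot. CPM is the count over the TMM-scaled library size times 1000000 and compares 1 gene between libraries, and TPM, the deposited abundance scaled to that same total, is corrected for transcript length and compares levels between genes. Replicate 1 of sgRNA_96 and replicate 1 of sgRNA_97 stood apart from the rest, at opposite ends of the second principal component.

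In the control cells the members spanned a wide range of abundance. UHRF1 was the most abundant of all 42 at 274 ± 6.20 TPM (SD, n = 3), level with the histone-binding subunit RBBP4 at 273 ± 7.52 TPM, and these did not differ beyond their spread. SMARCB1, a core SWI/SNF subunit, followed at 202 ± 15.6 TPM, then RBBP7 at 182 ± 7.20 TPM and the PRC1 subunit BMI1 at 174 ± 2.43 TPM. The lower end held the TET dioxygenases and the alternative PRC1 subunits. PCGF2 reached 3.36 ± 0.396 TPM, TET2 1.64 ± 0.0499 TPM and TET1 0.0103 TPM. The PRC2 methyltransferase EZH2 was 3.09 to 3.33 times as abundant as EZH1 across the SCR1 libraries, and BMI1 exceeded PCGF2 by 45.9 to 56.7 times in TPM.

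**Figure D1:**
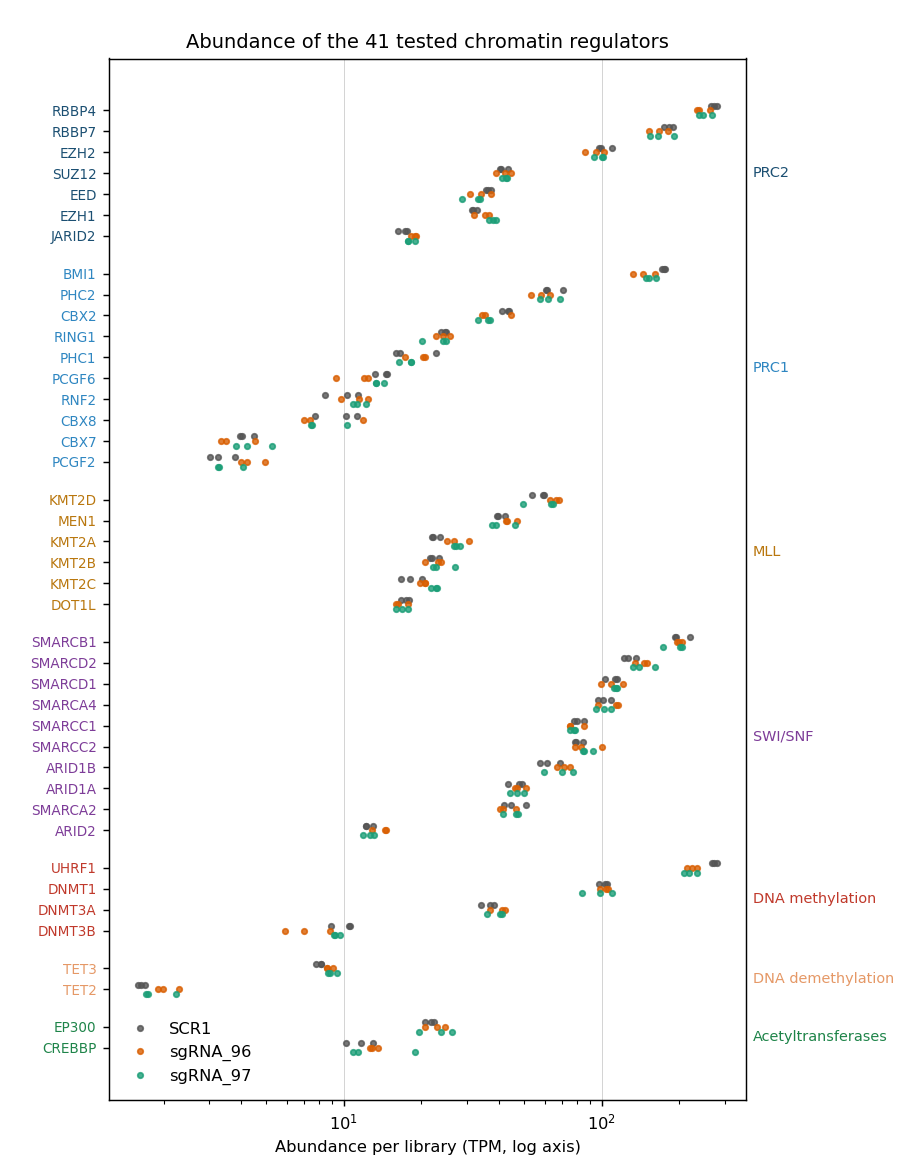
TPM on a log axis for the 41 tested members in each of the 9 libraries, grouped by complex and ordered by the SCR1 mean. Gray points are SCR1, orange sgRNA_96 and green sgRNA_97. UHRF1 and RBBP4 stand at the top near 273 TPM and TET2 at the bottom near 1.64 TPM, and the shift between groups is small next to the spread between genes.

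The comparison of the 6 KO libraries with the 3 SCR1 libraries asked whether any of these complexes changed in RNA level once the enhancer was targeted. Of the DNA methylation genes UHRF1, DNMT1 and DNMT3B were lower, with changes of -15.1 to -19.0 percent. In PRC2 EED and RBBP7 were lower, and in PRC1 BMI1 and CBX2 were. The MLL3 and MLL4 enzymes KMT2C and KMT2D and the SWI/SNF subunits ARID1B and ARID2 rose, as did EZH1. In all, 12 of 41 tested members were called at an adjusted p under 0.05 (29.3%), beside 20.7% of all 14436 genes tested. Of these 12, 5 were higher and 7 lower, where 10.1% of all genes were called higher and 10.6% lower. With a fitted length trend removed the members called were 1 higher and 7 lower, beside 18.2% of all genes (8.7% higher and 9.48% lower). With a fitted GC trend removed they were 10 higher and 8 lower, beside 25.1% of all genes (12.0% higher and 13.1% lower). The median log2 fold change was 0.03 over the members and 0.00 over all genes tested, and 22 members had a positive and 19 a negative value. Changes of the called members were 10.1 to 19.0 percent of the SCR1 level in size. As absolute log2 fold changes they ran from 0.14 (EZH1) to 0.30 (UHRF1), and the median over all called genes was 0.28. KO and SCR1 values did not overlap in CPM for 14 members (34.1%; 8 higher and 6 lower), beside 20.3% of all genes. In TPM they did not overlap for 6 of 41, beside 15.3% of all genes, namely BMI1 and UHRF1 (lower) and JARID2, KMT2A, TET2 and TET3 (higher).

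**Figure D2:**
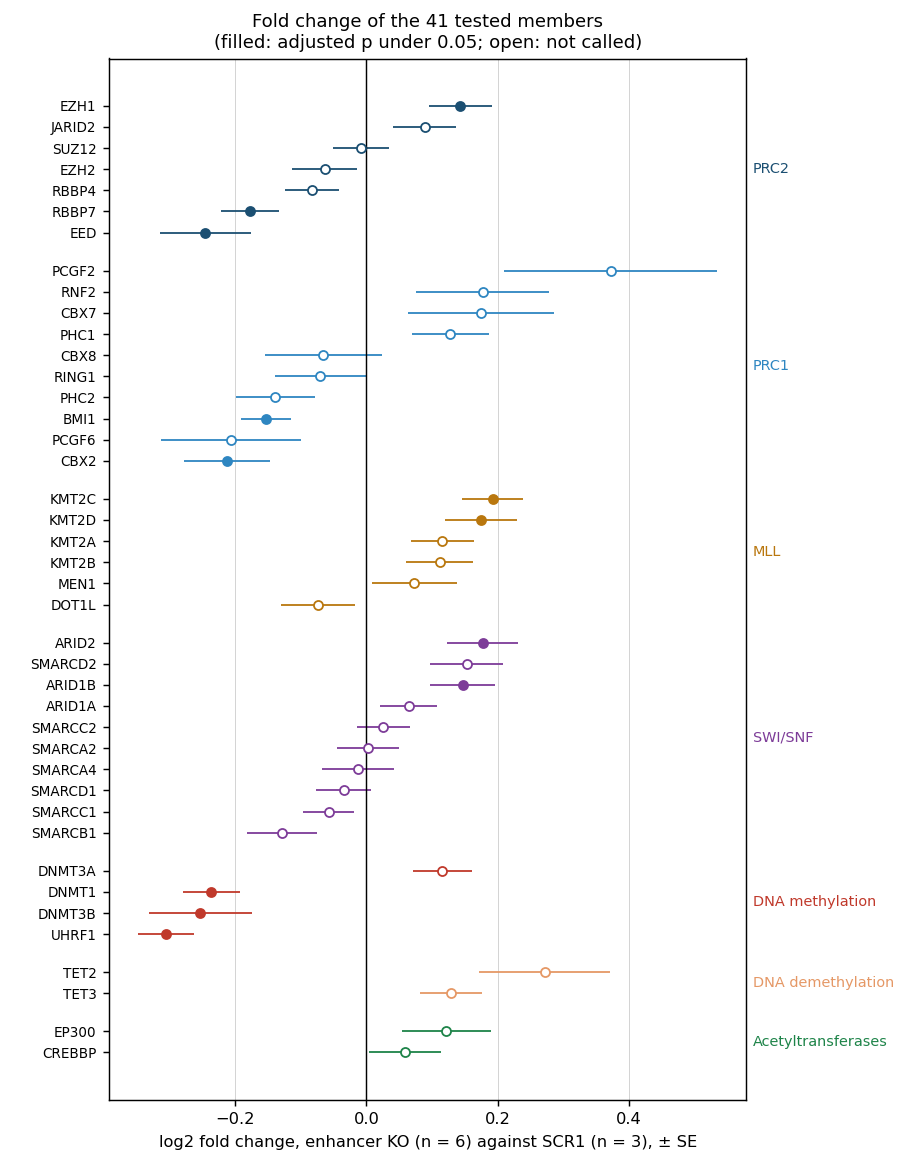
Log2 fold change of each tested member, KO against SCR1, with its standard error from edgeR, ordered within each complex. Filled points have an adjusted p under 0.05 and open points do not. UHRF1 is lowest at -0.30, and PCGF2 is highest at 0.37 but open, with a standard error of 0.16.

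Among the DNA methylation genes 3 of 4 were lower, none was higher and the median log2 fold change was -0.24. The share called was 75.0%, beside 20.7% of all genes tested. UHRF1, which reads hemimethylated DNA and brings DNMT1 to it, lies at chr19:4903080-4962154 (hg38, plus strand). It stood at 776, 754 and 811 CPM in SCR1 replicates 1, 3 and 4. The sgRNA_96 libraries gave 673, 619 and 619 CPM and the sgRNA_97 libraries 622, 598 and 658 CPM. All 6 KO libraries lay below every control, and the gap between the groups exceeded the range within either guide. Its log2 fold change was -0.30 (SE 0.04, adjusted p = 0.000139). UHRF1 was also lower in TPM, at 222 ± 10.8 (n = 6) against 274 ± 6.20 (n = 3), and it passed the threshold in each of the 21 alternatives with values of -0.33 to -0.26.

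DNMT1, the maintenance methyltransferase (chr19:10133342-10231286, minus strand), had 346, 329 and 331 CPM in SCR1. It had 301, 275 and 282 CPM with sgRNA_96 and 286, 269 and 297 CPM with sgRNA_97. No KO library reached the lowest control, and the log2 fold change was -0.24 (SE 0.04, adjusted p = 0.00128). Leaving out any 1 library kept this call, yet the length-corrected values did not show it. TPM was 102 ± 4.05 in SCR1 and 99.9 ± 9.08 in KO, and the log2(TPM + 1) test gave -0.03 with an adjusted p of 0.842. The call was also lost with the gene length offset on counts. DNMT1 has 52 annotated transcripts, among which Salmon divides the reads, and the part of that division in the difference was not tested.

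DNMT3B, a de novo methyltransferase, was at 21.5, 20.2 and 20.1 CPM in SCR1, 16.1, 17.2 and 15.6 CPM with sgRNA_96 and 17.9, 18.8 and 18.2 CPM with sgRNA_97. KO and SCR1 values did not overlap in CPM but did in TPM, and its log2 fold change was -0.25 (SE 0.08, adjusted p = 0.0301). Its paralogue DNMT3A, several times more abundant, had a positive value that did not pass the test. DNMT3A had 96.2, 91.9 and 97.6 CPM in SCR1, and 102, 108 and 99.9 CPM with sgRNA_96 and 104, 101 and 105 CPM with sgRNA_97. All 6 KO values lay above the controls (log2 fold change 0.12, SE 0.04, adjusted p = 0.0754). The DNMT3A to DNMT3B ratio of counts was 4.48 to 4.85 in SCR1 and 5.38 to 6.39 in KO libraries, and in TPM the ratios overlapped.

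UHRF1 and DNMT1 are known cell-cycle genes, expressed mainly in S phase. Alongside them, 15 of 15 S phase genes were lower, beside 10.6% of all genes tested. They ranged from GINS2 of the replicative helicase (-0.50) to the thymidylate synthase TYMS (-0.24), with a median log2 fold change of -0.33. Fewer cells in S phase and less RNA of these genes per cell cannot be told apart in bulk RNA. Of 10 G2/M genes, 6 were lower (60.0%, beside 10.6% of all genes tested) and none higher, with a median of -0.17. Both lists were chosen with earlier results of these data known, so their counts are no independent test. The part of cell-cycle state in the members' changes was not tested.

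Because UHRF1 and DNMT1 were lower with both guides, their promoters are given here in the gene's direction, from 250 bases before the start of the member's most abundant transcript to 10 bases after it. The sequences come from RefSeq on GRCh38.p14, which matched 36 of the 42 members by symbol. UHRF1 covers chr19:4909251-4909510 on the plus strand and DNMT1 covers chr19:10194944-10195203 on the minus strand. Capitals mark the letters of an E2F word, the class of site bound by E2F factors that drive S phase genes.
UHRF1: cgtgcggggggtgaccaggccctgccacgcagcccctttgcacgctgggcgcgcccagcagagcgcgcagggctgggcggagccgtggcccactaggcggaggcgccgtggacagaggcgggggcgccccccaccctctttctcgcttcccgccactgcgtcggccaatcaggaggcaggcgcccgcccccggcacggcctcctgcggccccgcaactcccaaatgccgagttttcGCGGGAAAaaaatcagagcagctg
DNMT1: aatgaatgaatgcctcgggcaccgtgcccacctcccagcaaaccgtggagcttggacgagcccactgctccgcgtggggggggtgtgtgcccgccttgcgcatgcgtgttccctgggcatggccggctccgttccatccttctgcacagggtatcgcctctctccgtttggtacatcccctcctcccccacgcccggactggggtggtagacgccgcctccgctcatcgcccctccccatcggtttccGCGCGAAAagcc
The words searched were TTTCCCGC, TTTGGCGC, TTTCGCGC and TTTGCCGC on both strands of the 300-base windows, and no word is the reverse complement of another. UHRF1 holds TTTCCCGC on the reverse strand, 14 to 7 bases before the start, and DNMT1 holds TTTCGCGC on the reverse strand across the start itself. Such a word lay in 3.31% of all 35116 promoter windows and in 5 of the 36 members' windows (EZH1, EZH2, SUZ12, DNMT1 and UHRF1). Each word holds a CG, and the members' windows had a median of 35.5 CG pairs against 14.0 over all windows, so the shares are not compared. A match describes letters and shows no binding.

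Among the demethylation genes neither TET2 nor TET3 passed the test, although both had KO values above all controls in CPM and in TPM. TET2 was at 11.9 ± 0.269 CPM in SCR1 and 14.4 ± 1.60 CPM in KO (log2 fold change 0.27, SE 0.10, adjusted p = 0.0641). TET3 was at 73.4 ± 2.90 CPM in SCR1 and 80.3 ± 2.44 CPM in KO (0.13, SE 0.05, adjusted p = 0.0624), and it passed with DESeq2, with a minimum count of 50 and with the GC trend removed, while with the length trend removed its difference was 0.0039. TET1 was nearly silent, with 0 to 0.331 CPM across the 9 libraries.

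PRC2 showed opposite changes within the complex, with EZH1 higher, EED and RBBP7 lower, and EZH2, SUZ12, JARID2 and RBBP4 not called. The 3 called members were 42.9% of 7, beside 20.7% of all genes tested. EZH1, the methyltransferase that prevails in resting cells (chr17:42700275-42745049, minus strand), had 63.9, 64.4 and 63.8 CPM in SCR1. It had 71.8, 71.9 and 66.7 CPM with sgRNA_96 and 68.2, 74.7 and 70.8 CPM with sgRNA_97. Every KO value exceeded every control in CPM, and the controls differed by less than 1 CPM (log2 fold change 0.14, SE 0.05, adjusted p = 0.0458). In TPM the EZH1 groups overlapped, and its call held in 7 of 21 alternatives. EZH2, the methyltransferase of dividing cells, had 196, 216 and 201 CPM in SCR1, and 180.2, 197 and 201 CPM with sgRNA_96 and 187, 207 and 201 CPM with sgRNA_97. Its groups overlapped (-0.06, SE 0.05, adjusted p = 0.402). The EZH2 to EZH1 ratio in TPM was 3.09 to 3.33 in SCR1 and 2.55 to 2.80 in KO libraries. Of 17 paralogue ratios computed this was the only 1 whose groups did not overlap in TPM, and it did not overlap in counts either (3.07 to 3.35 against 2.51 to 3.01). In counts 5 of the 17 did not overlap. The others were RBBP4 to RBBP7, CBX8 to CBX2 and DNMT3A to DNMT3B, higher in KO, and SMARCD1 to SMARCD2, lower in KO.

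EED, the subunit that binds methylated lysine 27 (chr11:86201212-86278813, plus strand), was at 46.9, 43.0 and 45.1 CPM in SCR1, 36.3, 38.2 and 41.5 CPM with sgRNA_96 and 40.1, 39.3 and 32.7 CPM with sgRNA_97. All KO values fell below the controls, the lowest being sgRNA_97 replicate 4 (log2 fold change -0.25, SE 0.07, adjusted p = 0.0188). RBBP7, a histone-binding subunit on the X chromosome (chrX:16839283-16870362, minus strand), was at 230.0, 241 and 245 CPM in SCR1, 198, 209.7 and 214 CPM with sgRNA_96 and 215, 225 and 206 CPM with sgRNA_97. Its groups were likewise separate in CPM (-0.18, SE 0.04, adjusted p = 0.0107). RBBP4, its close paralogue, had 410.0, 418 and 427 CPM in SCR1, and 379, 387 and 403 CPM with sgRNA_96 and 416, 403 and 381 CPM with sgRNA_97. With 1 KO library inside the control range, it was not called (-0.08, SE 0.04, adjusted p = 0.164). The scaffold SUZ12 differed by -0.01 (SE 0.04) and the accessory subunit JARID2 by 0.09 (SE 0.05), neither called. RBBP4, EZH2, SUZ12 and EED have named pseudogene copies, so their counts rest on how reads were divided. Of the 8 tested PRC2 partners and H3K27 demethylases, PHF19 (-0.25, adjusted p = 0.000917) and EPOP (-0.29), both accessory subunits, were lower and the demethylase KDM6A (0.15) was higher. These were 37.5% of the 8, beside 20.7% of all genes tested.

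In PRC1, 2 of 10 subunits were lower and none higher, at a median of -0.07, where 20.7% of all genes tested were called. BMI1, the PCGF subunit of canonical PRC1 and a self-renewal factor (chr10:22321099-22331484, plus strand), was at 299.7, 289 and 301 CPM in SCR1. The guides gave 261, 266 and 279 CPM (sgRNA_96) and 264, 265 and 266 CPM (sgRNA_97). All 6 lay below the controls, and the 3 sgRNA_97 libraries were close together (log2 fold change -0.15, SE 0.04, adjusted p = 0.0102). Reads of the COMMD3-BMI1 readthrough model and of BMI1P1 can be shared with BMI1. CBX2, a chromodomain reader of methylated lysine 27 (chr17:79778148-79787983, plus strand), had 131, 128 and 124 CPM in SCR1, 131, 106 and 105 CPM with sgRNA_96 and 102, 105 and 112 CPM with sgRNA_97. The first sgRNA_96 library lay above every control and the other 5 KO libraries below (-0.21, SE 0.07, adjusted p = 0.0303). Without that library the value was -0.27 with an adjusted p of 0.000504.

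Among the members, the paralogues of BMI1 (PCGF2 and PCGF6) and of CBX2 (CBX7 and CBX8) did not pass the test in KO. PCGF2, which can take the place of BMI1, had 3.97, 3.93 and 5.34 CPM in SCR1, and 6.56, 5.98 and 4.50 CPM with sgRNA_96 and 4.96, 6.32 and 5.94 CPM with sgRNA_97 (0.37, SE 0.16, adjusted p = 0.118). PCGF6, of a variant PRC1, had 22.9, 23.1 and 21.4 CPM in SCR1, 14.4, 18.9 and 18.9 CPM with sgRNA_96 and 21.4, 22.9 and 20.2 CPM with sgRNA_97. Only the sgRNA_96 values were separate from the controls, and PCGF6 was called with that guide alone (-0.36, SE 0.11, adjusted p = 0.0368), while the difference between guides was not called. CBX8, another chromodomain reader, had 20.6, 18.8 and 18.6 CPM in SCR1, and 22.3, 17.7 and 16.8 CPM with sgRNA_96 and 19.2, 17.6 and 17.8 CPM with sgRNA_97 (-0.07, SE 0.09). The E3 ligases RING1 (-0.07) and RNF2 (0.18), the reader CBX7 (0.17) and the polyhomeotic subunits PHC1 (0.13) and PHC2 (-0.14) were not called. Of 18 other PRC1 subunits tested, PHC3 (0.33, adjusted p = 0.00197) and AUTS2 (0.19) were higher and PCGF1 (-0.31), a further BMI1 paralogue, was lower. These were 16.7% of the 18, beside 20.7% of all genes tested. The 5 tested subunits of the H2A deubiquitinase, which removes the PRC1 mark, ranged from -0.12 (BAP1) to 0.06 (ASXL1).

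**Figure D3:**
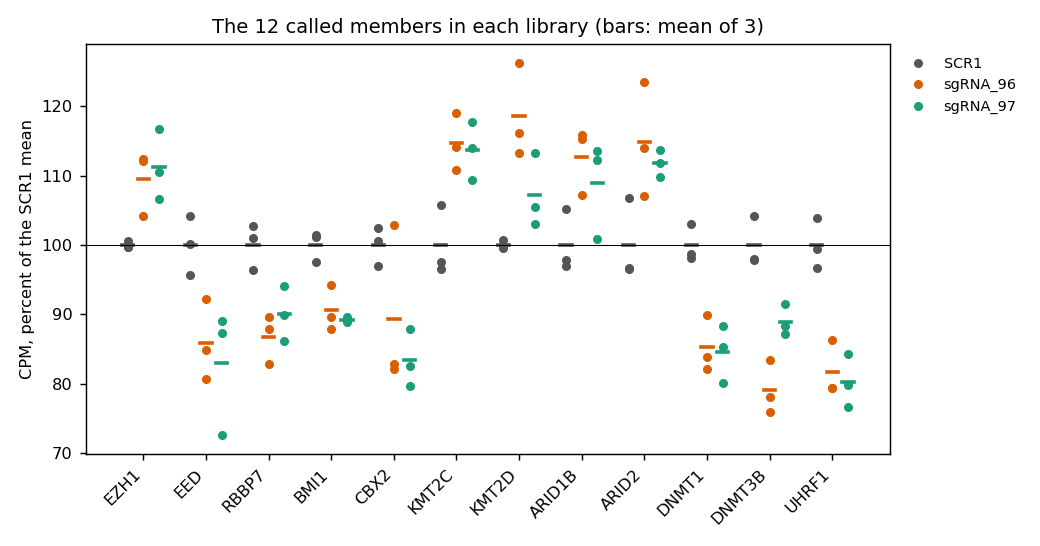
CPM of the 12 called members in each library as a percentage of the SCR1 mean of that gene, with points for libraries and bars for the mean of 3. UHRF1 and DNMT1 sit below 100% in all 6 KO libraries, KMT2C and KMT2D above it, and CBX2 has 1 sgRNA_96 library above the controls.

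In the MLL family 2 of 6 members were higher and none lower, and 5 of 6 values were above 0 (median 0.11). The share called was 33.3%, beside 20.7% of all genes tested. KMT2C (MLL3), an enhancer lysine 4 methyltransferase (chr7:152134922-152436644, minus strand), had 108, 118 and 107 CPM in SCR1, 123, 127 and 132 CPM with sgRNA_96 and 131, 127 and 122 CPM with sgRNA_97. In CPM the groups were separate, and the ranges of the guides overlapped (log2 fold change 0.19, SE 0.05, adjusted p = 0.00827). In TPM the KO and SCR1 values of KMT2C overlapped. Reads of KMT2C can be shared with its pseudogene copies. KMT2D (MLL4), its paralogue (chr12:49018975-49060794, minus strand), had 213, 211 and 210.5 CPM in SCR1, 267, 239 and 245 CPM with sgRNA_96 and 223, 218 and 239 CPM with sgRNA_97. All KO values exceeded the controls in CPM, where these were tight, and the highest was sgRNA_96 replicate 1 (0.17, SE 0.05, adjusted p = 0.0330). In TPM the KMT2D groups overlapped, with sgRNA_97 replicate 1 at 49.3 and the controls at 53.5 to 59.6 TPM. KMT2A, the gene rearranged in MLL leukemias, gave 0.12 (SE 0.05, adjusted p = 0.0957), its paralogue KMT2B 0.11 (SE 0.05), the cofactor MEN1 0.07 (SE 0.06) and the lysine 79 methyltransferase DOT1L -0.07 (SE 0.06). KMT2A passed in 3 of 21 alternatives, among them log2(TPM + 1) at 0.27 with an adjusted p of 0.0364. Without the filter on low values the same scale gave an adjusted p of 0.0553, and with the length trend removed the difference was -0.0022.

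Other subunits of the COMPASS family, to which the MLL complexes belong, were called only in the lower direction. Of 15 tested, 5 were lower and none higher, namely PAGR1 (-0.26), WDR5 (-0.22), HCFC1 (-0.18), ASH2L (-0.15) and WDR82 (-0.14). The share called was 33.3%, beside 20.7% of all genes tested (10.1% higher and 10.6% lower). Partners of DOT1L and the super elongation complex showed 5 higher and none lower of 15 (33.3% as well). Among them were MLLT3 (0.24), an acetyl-lysine reader also known as AF9, and the cyclin CCNT2 (0.23). The part of transcript length in the directions of these lists was not tested. Of the textbook targets of Polycomb and MLL, 23 of 25 were below the filter with at most 7 counts in any library, among them HOXA9, MEIS1 and CDKN2A. HOXA13 and PBX3, the tested ones, were not called.

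Within SWI/SNF, 2 of 10 members were higher and none lower, at a median of 0.01, where 20.7% of all genes tested were called. ARID1B, the DNA-binding subunit of the canonical BAF form (chr6:156776020-157210779, plus strand), had 244, 227 and 225 CPM in SCR1, 267, 249 and 269 CPM with sgRNA_96 and 264, 234 and 260.4 CPM with sgRNA_97. One sgRNA_97 library fell inside the control range (log2 fold change 0.15, SE 0.05, adjusted p = 0.0448). ARID1A, its more often mutated paralogue, had 207, 207 and 195 CPM in SCR1, and 222, 206 and 213 CPM with sgRNA_96 and 219, 200.2 and 213 CPM with sgRNA_97. These overlapped (0.06, SE 0.04, adjusted p = 0.327). ARID2, the corresponding subunit of the PBAF form (chr12:45729706-45908040, plus strand), had 72.2, 65.3 and 65.3 CPM in SCR1, 83.5, 72.4 and 77.1 CPM with sgRNA_96 and 75.6, 74.2 and 76.9 CPM with sgRNA_97. All KO values exceeded the controls in CPM, the nearest by under 1 CPM (0.18, SE 0.05, adjusted p = 0.0302), while the groups overlapped in TPM.

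The ATPases SMARCA4 (-0.01, SE 0.05) and SMARCA2 (0.00, SE 0.05) and the core subunits SMARCC1 (-0.06), SMARCC2 (0.03), SMARCD1 (-0.03) and SMARCB1 (-0.13) were not called. SMARCD2, at 206 ± 11.5 CPM in SCR1 and 230 ± 15.3 CPM in KO, came close (0.15, SE 0.06, adjusted p = 0.0641) and passed in 8 of 21 alternatives. Of 17 other tested SWI/SNF subunits 4 were called, beside 20.7% of all genes tested. BCL11A, a B cell transcription factor found in the complex, was higher (0.39, adjusted p = 0.000277) and BCL7C (-0.38), BCL7B (-0.20) and ACTL6A (-0.15) were lower. The acetyltransferases EP300 (0.12, SE 0.07) and CREBBP (0.06, SE 0.06) were not called. Of 10 related acetyltransferases and bromodomain readers, KAT6B (0.20) was higher and KAT5 (-0.31) lower. Of 17 other tested DNA methylation genes, OGT, the TET-binding glycosyltransferase, was higher (0.36), and MBD3 (-0.33), CXXC5 (-0.30), IDH2 (-0.25), IDH1 (-0.20) and CDCA7 (-0.17) were lower. Over all 105 tested genes of the lists of further chromatin regulators, 11 were higher and 17 lower (26.7%), beside 20.7% of all genes tested.

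Each guide was then compared with SCR1 by itself. These comparisons share their 3 control libraries, so the values are given side by side. With sgRNA_96, 7 of 41 members were called (17.1%, beside 11.2% of all genes): UHRF1, DNMT1, DNMT3B, RBBP7 and PCGF6 lower, KMT2C and KMT2D higher. With sgRNA_97, 6 were called (14.6%, beside 15.1% of all genes): UHRF1, DNMT1, EED, BMI1 and CBX2 lower, KMT2C higher. UHRF1 gave -0.29 (SE 0.05, adjusted p = 0.00219) with sgRNA_96 and -0.32 (SE 0.05, adjusted p = 0.00103) with sgRNA_97. DNMT1 gave -0.23 and -0.24, and KMT2C 0.20 and 0.19. EZH1, ARID1B and ARID2 passed with neither guide alone. Between the guides no member was called by edgeR, by DESeq2 or by limma on TPM, beside 3 of 14436 genes (0.0208%) in edgeR. An unadjusted p under 0.05 was reached by 2 of 41 members, PCGF6 (0.30, sgRNA_97 against sgRNA_96, SE 0.11) and KMT2D (-0.14, SE 0.05), beside 3.48% of all genes.

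Transcript length moved with these values. The 13 members with transcripts of 6000 bases or more, the MLL enzymes, TET2, TET3, the ARID subunits and acetyltransferases among them, had a median log2 fold change of 0.12, with 4 higher and none lower. All 1545 tested genes of that length had a median of 0.09, and 24.0% were called higher against 3.82% lower. The 3 members under 2000 bases had a median of -0.13, and the 4984 genes of that length one of -0.05, with 4.84% higher and 13.96% lower. Over the 41 members Spearman's rho between length and fold change was 0.46, and over all genes, which share the same libraries, 0.16. With a fitted length trend removed, KMT2C (0.07), KMT2D (0.05), ARID1B (0.08), ARID2 (0.09), EZH1 (0.11) and EED (-0.20) no longer passed, while UHRF1, DNMT1, DNMT3B, BMI1, CBX2 and RBBP7 did, as did SMARCC1 and SMARCD2.

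**Figure D4:**
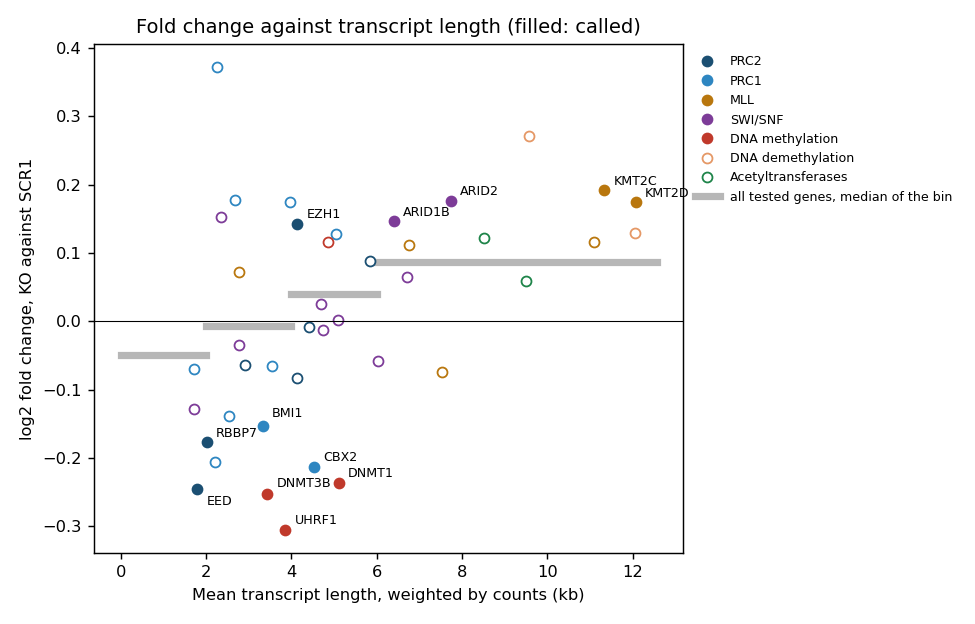
Log2 fold change of each tested member (KO against SCR1) against its mean transcript length in kb, colored by complex and filled where called. Gray bars give the median over all tested genes in 4 length bins, which goes from -0.05 in the shortest to 0.09 in the longest, and the called higher members lie mostly on the right.

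Calls differed in how much they rested on single libraries. Leaving out 1 library at a time, UHRF1 and DNMT1 passed 9 of 9 times, RBBP7 8, EED, BMI1 and KMT2C 7, ARID2 5, DNMT3B 4, KMT2D 3, CBX2 and EZH1 2, and ARID1B 1. The highest adjusted p so reached was 0.00274 for UHRF1, 0.0143 for DNMT1 and 0.0648 for RBBP7 (without SCR1 replicate 4). EED (0.110), BMI1 (0.0582) and KMT2C (0.0612) lost their calls without SCR1 replicate 1 and without SCR1 replicate 4. For the other 6 it was between 0.114 (KMT2D) and 0.196 (ARID1B). Without SCR1 replicate 4 only UHRF1 and DNMT1 of the 41 members were called, beside 12.3% of all genes. Omitting SCR1 replicate 1 gave 4 called members (beside 10.2% of all genes), and omitting SCR1 replicate 3 gave 6 (beside 16.3%). Without sgRNA_96 replicate 3 there were 7 (beside 16.0% of all genes), and without the other KO libraries 8 to 12 (beside 17.0% to 23.8%). Without both KO libraries that stood apart, an alternative chosen after the data were seen, 12 were called, 5 higher and 7 lower, beside 22.9% of all genes (11.1% higher and 11.9% lower). Of the reported calls ARID1B (adjusted p = 0.102) and ARID2 (0.0590) were lost there, and TET2 (0.0356) and SMARCD2 (0.0445) came in as higher. On log2(TPM + 1) the called members were UHRF1 (lower) and KMT2A (higher), beside 8.59% of all genes (4.23% higher and 4.36% lower).

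**Figure D5:**
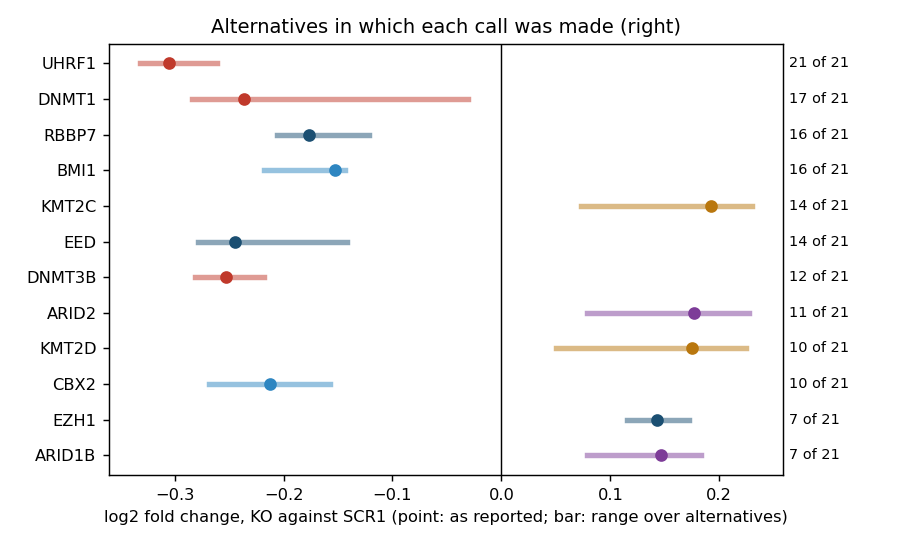
Log2 fold change of the 12 called members as reported (points) and its range over 21 alternative settings (bars), with the number of alternatives that called the member at right. UHRF1 is called in 21 of 21, and DNMT1, with its bar reaching -0.03, in 17, and EZH1 and ARID1B in 7 each.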

How the data were processed

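RNA was sequenced from HAL-01 cells, 3 libraries in each of 3 groups, with groups taken from the sample titles. The authors made TruSeq mRNA libraries (kit per the labels), trimmed reads with TrimGalore, aligned them to hg38 with STAR and quantified transcripts with Salmon 1.10.1 (version per the submitters' processing notes) through nf-core. The deposited files hold estimated counts per transcript, without normalization, and TPM, which Salmon scales to 1000000 per library after correction for effective transcript length. All 252835 transcript identifiers matched GENCODE release 44 on hg38. Whether counting used strand is not given in the sources used here, so overlapping genes cannot be told apart.

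Counts of a gene's transcripts were added up, then rounded to whole counts. Genes were kept by filterByExpr of edgeR (minimum count 10), and libraries were scaled by TMM. Under R 4.3.3, edgeR 4.0.16 ran its quasi-likelihood test across all 14436 genes, with Benjamini-Hochberg adjustment over all of them and a threshold of 0.05, and unless another test is named every adjusted p comes from it. The KO libraries formed 1 group of 6, and the guide comparisons came from a fit with 3 groups. The authors' methods name DESeq2 for this comparison, and DESeq2 1.42.0 was an alternative, as was limma 3.58.1 on log2(TPM + 1). Length and GC trends were removed as offsets fitted by loess per library. TPM served to compare levels between genes, for ratios and overlap of groups, and for the limma tests. The main tests used estimated counts, and the gene length offset was derived from counts and TPM. On simulated counts with 200 of 14436 genes changed 2-fold, KO against SCR1, the test recovered 79.5% with 0 in the wrong direction. Of 176 calls, 17 were false, a larger share than the threshold of 0.05. The called members changed by 10.1 to 19.0 percent, so the recovery of 2-fold changes does not describe changes of their size.

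Per-library values were required for every member with an adjusted p under 0.05 and for both members of its paralogue pair, and up to 3 genes per direction were named from each list of pathway genes. Where a list had more called genes, the others were named after their values were seen. The members and the lists were chosen with earlier results of these data known. Tested members had 69 to 22853 counts per library, so counting error weighs most on PCGF2 (69 to 123 counts), and chi-square per degree of freedom between replicates was 4.38 to 8.82, so no library was a duplicate.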

Additional observations from a re-analysis of the deposited data

Results flagged for a closer look

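Across the 41 tested members, 3 had a KO library far from the other 5 KO libraries by Dixon's criterion, where chance alone gives about 1 in 20 groups (2.05 of 41). BMI1 stood at 279 CPM in sgRNA_96 replicate 4, above the other KO libraries at 261 to 266 CPM and still below the controls. RING1, a PRC1 ubiquitin ligase, was at 24.6 CPM in sgRNA_97 replicate 1, below the other KO libraries at 28.0 to 29.8 CPM. CBX2 was at 131 CPM in sgRNA_96 replicate 1, against 102 to 112 CPM in the other KO libraries.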

How the results depend on the processing

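Over 21 alternatives applied to 41 members, 704 values kept their direction and side of the threshold, 97 were no longer past it, 23 came past it and 37 changed sign, all 37 of members that were not called as reported. Members called in the KO comparison numbered 12 as reported, 2 on log2(TPM + 1), 2 on log2(TPM + 0.1), 1 on log2(TPM + 1) without a filter and 3 with the gene length offset. Beside these, 20.7% of all genes were called as reported, and 8.59%, 8.63%, 2.37% and 10.6% in those alternatives. With sgRNA_96 the 7 reported became 1, 1, 0 and 3 in the same order, 4 with the length trend removed and 15 with the GC trend removed. With sgRNA_97 the 6 reported became 1, 1, 1 and 3, and 13 with the GC trend removed, beside 4.89%, 4.89%, 1.14%, 6.40% and 19.8% of all genes. The cause was not tested. Leaving out 1 library gave 2 to 12 called members for KO, 3 to 7 for sgRNA_96 (lowest without sgRNA_96 replicate 3 and without SCR1 replicate 1) and 1 to 7 for sgRNA_97 (lowest without sgRNA_97 replicate 3). The shares of all genes called in these fits were 10.2% to 23.8% for KO, 5.05% to 13.5% for sgRNA_96 and 6.70% to 16.6% for sgRNA_97. Genes called in all, 2984 as reported, were 1240, 1246 and 648 in the TPM tests, 1529 with the gene length offset and 1503 to 3516 with 1 library left out. Libraries of the same number did not deviate together over all genes (correlations -0.0656 to 0.0552). This cannot exclude a pairing that touches only some genes. With the replicate block 11 members were called for KO, 9 for sgRNA_96 and 5 for sgRNA_97, and EZH1 was the called member lost in KO. All genes were then called at 20.3%, 10.9% and 14.4%.

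Signs changed as follows, on log2(TPM + 1) with and without the filter, log2(TPM + 0.1) and with the gene length offset: SUZ12 0.020, 0.020 and 0.018; CBX7 -0.024, -0.031 and -0.019; SMARCA2 -0.057, -0.058 and -0.061; SMARCA4 0.043, 0.043 and 0.040; SMARCD1 0.018, 0.018 and 0.014. With the length trend removed they did for KMT2A (-0.0022), SMARCA2 (-0.046), SMARCC2 (-0.015), ARID1A (-0.0073) and CREBBP (-0.044), and with the GC trend removed for DOT1L (0.0028), SMARCA2 (-0.010) and SMARCA4 (0.043). SUZ12 gave 0.00037 with library totals only and SMARCA2 -0.0070 without a filter. With 1 library left out SUZ12 ranged from -0.020 to 0.0062, SMARCA2 from -0.041 to 0.027 and SMARCA4 from -0.053 to 0.010.

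The limits are those of 3 control libraries. Standard errors of the members had a median of 0.0534 on the log2 scale, so differences of the size seen in most uncalled members could not be told from 0.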
